A study of Mus musculus with 8 samples.

Results

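Cytochrome c oxidase, complex IV of the respiratory chain, is built partly from nuclear-encoded subunits that exist as pairs of isoforms, and 9 genes of these pairs and their close relatives were examined. They were taken by name: every probe set annotated to one of the 9 symbols alone was kept, which gave 16 probe sets and all 9 genes, out of 18193 genes measured. Cox6a2, Cox7a1 and Cox8b are the heart and skeletal muscle isoforms, and Cox6a1, Cox7a2 and Cox8a are their ubiquitous partners. Cox4i2 is the hypoxia-responsive partner of the ubiquitous Cox4i1. Cox7a2l, also known as a supercomplex assembly factor, is related to Cox7a2 and was counted with the ubiquitous genes.

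The cells were C2C12, an established mouse myoblast line that fuses into myotubes in low serum, here 2% dialyzed serum for 3 days. They were then infected with adenovirus carrying either green fluorescent protein (GFP) or a GFP fusion of the coactivator PGC-1α (GFP-PGC-1α), with or without 100 µM deferoxamine (DFO), an iron chelator. RNA was taken after another 3 days, and each of the 4 groups had 2 biological replicates, each on 1 Affymetrix Mouse 430 2.0 array. The groups are GFP, GFP-PGC-1α, GFP+DFO and GFP-PGC-1α+DFO, so every culture carried an adenovirus and a GFP sequence, no uninfected culture was compared, and all cultures came from 1 cell line.

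As background, the paired subunits sit at the periphery of the catalytic core that transfers electrons from cytochrome c to oxygen, and the isoform used changes how the enzyme responds to adenine nucleotides and to oxygen. Mature striated muscle replaces the ubiquitous forms of these subunits with the muscle forms. PGC-1α raises transcription of respiratory chain genes through partner factors such as ERRα and NRF-1, and iron is needed both for the haem of the oxidase and for the hydroxylases that hold hypoxia-inducible factors down.

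Promoter sequences are shown for the muscle and ubiquitous genes of the Cox7a and Cox8 pairs, because these pairs held the genes that responded most differently to GFP-PGC-1α and to DFO among those with a promoter in the RefSeq table used (GRCm38.p6, 6 of the 9 genes; Cox4i1, Cox4i2 and Cox6a2 were not among them). Each runs 5′ to 3′ from 250 bases before to 50 bases after the gene's start, and capitals mark matches to the motifs searched.
Cox7a1 (chr7:30183921-30184220, plus strand): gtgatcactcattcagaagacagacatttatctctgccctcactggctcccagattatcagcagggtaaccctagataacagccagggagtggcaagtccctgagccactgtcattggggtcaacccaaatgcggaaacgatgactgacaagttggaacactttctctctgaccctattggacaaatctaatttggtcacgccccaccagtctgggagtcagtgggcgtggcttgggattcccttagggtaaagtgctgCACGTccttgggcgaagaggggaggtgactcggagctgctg
Cox7a2 (chr9:79759804-79760103, minus strand): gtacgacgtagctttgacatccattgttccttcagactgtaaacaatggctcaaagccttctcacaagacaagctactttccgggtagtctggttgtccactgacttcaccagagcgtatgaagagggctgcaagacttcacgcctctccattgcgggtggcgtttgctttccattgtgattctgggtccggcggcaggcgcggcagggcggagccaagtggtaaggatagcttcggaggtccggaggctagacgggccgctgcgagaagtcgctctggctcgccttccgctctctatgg
Cox8b (chr7:140900397-140900696, minus strand): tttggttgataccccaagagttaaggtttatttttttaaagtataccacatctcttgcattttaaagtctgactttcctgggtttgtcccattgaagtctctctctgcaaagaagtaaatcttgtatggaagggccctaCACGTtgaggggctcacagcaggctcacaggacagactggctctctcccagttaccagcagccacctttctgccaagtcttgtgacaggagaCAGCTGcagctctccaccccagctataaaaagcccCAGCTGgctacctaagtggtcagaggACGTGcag
Cox8a (chr19:7217567-7217866, minus strand): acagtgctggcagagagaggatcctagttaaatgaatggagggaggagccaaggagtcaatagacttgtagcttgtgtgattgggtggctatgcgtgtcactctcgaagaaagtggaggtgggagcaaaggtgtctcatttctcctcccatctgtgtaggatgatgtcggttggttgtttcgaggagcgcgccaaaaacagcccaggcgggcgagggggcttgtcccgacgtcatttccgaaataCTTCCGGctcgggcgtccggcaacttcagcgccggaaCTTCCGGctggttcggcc

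Exact matches were searched on both strands for AAGGTCA (an ERR half-site), ACGTG (the core of a hypoxia response element), CAGCTG (a myogenic E-box), CCGGAAG (an ETS core) and GCATGCGC (an NRF-1 half-site), which occur in 4.72%, 19.6%, 16.3%, 8.86% and 2.71% of the 32851 mouse promoters of the same length. Cox8b held 2 E-boxes, the first base of the upstream one 19 bases before the start, and 2 hypoxia response element cores, and Cox7a1 held 1 such core. Cox8a held 2 ETS cores. Cox6a1 held 1 ETS core and 2 overlapping NRF-1 half-sites, 1 on each strand. None of these letters occurred in the Cox7a2 and Cox7a2l windows, and none of the 6 windows held the ERR half-site. The matches describe the windows only.

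The deposited intensities had similar medians on the 8 arrays, from 59.45 to 62.82, and the 2 arrays of a group correlated at 0.942 to 0.962 across probe sets. By its lead probe set Ppargc1a, the gene carried by the construct, was higher with it by 7.77 (log2) without DFO and by 7.34 under DFO. Without the construct this probe set read 26.62 to 88.09, around the array medians. The other Ppargc1a probe sets read 113.21 or less on every array. Their group means were lower with the construct than without it, both without and with DFO. Transgene and endogenous transcript were not separated. The RNA integrity measure from β-actin, the ratio of its 5′ to its 3′ probe set, was 0.753 and 0.811 in GFP-PGC-1α+DFO, 0.868 and 0.859 in GFP+DFO, and 0.897 to 0.921 without DFO. The summed intensity of 7 myotube markers was 39737 to 42002 in GFP, 34256 to 34529 in GFP-PGC-1α, 17729 to 18242 in GFP+DFO and 12653 to 13689 in GFP-PGC-1α+DFO. In such bulk RNA, fewer myotubes and less RNA per myotube cannot be told apart. Changes below are on the log2 scale from the limma fit, with a moderated standard error (SE), and a gene passed at a Benjamini-Hochberg adjusted p below 0.05 over all 18193 genes. With 2 arrays a group, the smallest p of an exact permutation test of 2 groups is 0.333, so the fit moderates each gene's variance with that of all genes.

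Cox7a1, the muscle form of subunit 7a, gave the largest response to the construct of the 9 genes and almost none to DFO in GFP myotubes. Its intensity was 243.28 and 243.42 in GFP, 3082.64 and 2967.5 in GFP-PGC-1α, 225.95 and 245.08 in GFP+DFO, and 2491.7 and 2257.33 in GFP-PGC-1α+DFO. All 4 arrays with the construct lay above all 4 arrays without it, while GFP and GFP+DFO overlapped. The rise with GFP-PGC-1α was 3.64 ± 0.09 (SE) without DFO (12.4-fold, adjusted p = 0.000633, n = 2 arrays a group) and 3.33 ± 0.09 with DFO (10.1-fold, adjusted p = 0.000292). With DFO it differed by -0.05 in GFP myotubes (adjusted p = 0.767). In GFP-PGC-1α myotubes it fell by 0.35 with DFO (adjusted p = 0.048), a call that passed in 6 of 21 alternatives and became 0.09 higher when arrays were scaled on their spiked-in control RNA.

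Cox8b, the muscle form of subunit 8, rose with the construct when DFO was absent and fell with DFO under both constructs. Its intensity was 1048.79 and 1087.02 in GFP, 2138.12 and 2076.9 in GFP-PGC-1α, 298.37 and 248.29 in GFP+DFO, and 312.72 and 296.97 in GFP-PGC-1α+DFO. The order was GFP-PGC-1α, GFP and then the DFO groups, which overlapped. The construct raised it by 0.98 ± 0.11 without DFO (1.97-fold, adjusted p = 0.0104). This call was lost when either GFP or either GFP-PGC-1α array was left out (changes of 0.96 to 1.01, adjusted p = 0.0508 to 0.077). Between the constructs under DFO the difference was 0.16 ± 0.11 (adjusted p = 0.4). With DFO it fell by 1.97 in GFP (3.92-fold, adjusted p = 0.000479) and fell by 2.79 in GFP-PGC-1α (6.91-fold, adjusted p = 0.000172). The difference between the responses, -0.82 ± 0.16, did not pass (adjusted p = 0.103), so the responses to the construct with and without DFO were not shown to differ.

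Cox6a2, the muscle form of subunit 6a, fell with DFO under both constructs, and less so with GFP-PGC-1α. Its intensity was 4357.23 and 4105.94 in GFP, 3661.61 and 3785.19 in GFP-PGC-1α, 634.58 and 669.51 in GFP+DFO, and 1399.94 and 1352.88 in GFP-PGC-1α+DFO. No groups overlapped, and the order was GFP, GFP-PGC-1α, GFP-PGC-1α+DFO and GFP+DFO, but the first pair of neighbours did not differ in the fit (-0.18 ± 0.08, adjusted p = 0.231). With DFO it fell by 2.70 in GFP (6.49-fold, adjusted p = 0.000147) and fell by 1.44 in GFP-PGC-1α (2.71-fold, adjusted p = 0.000421). Under DFO the construct raised it by 1.08 ± 0.08 (2.11-fold, adjusted p = 0.00194). The interaction, the response to the construct with DFO minus that without, was 1.26 ± 0.12 (adjusted p = 0.0373). It passed in 7 of 19 alternatives and in none that left out 1 array, where it was 1.22 to 1.31 with adjusted p of 0.0558 to 0.219. The second Cox6a2 probe set fell by 3.44 and fell by 1.86 with DFO and rose by 1.43 with the construct under DFO, with an interaction of 1.57 ± 0.25 (adjusted p = 0.11).

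**Figure D1:**
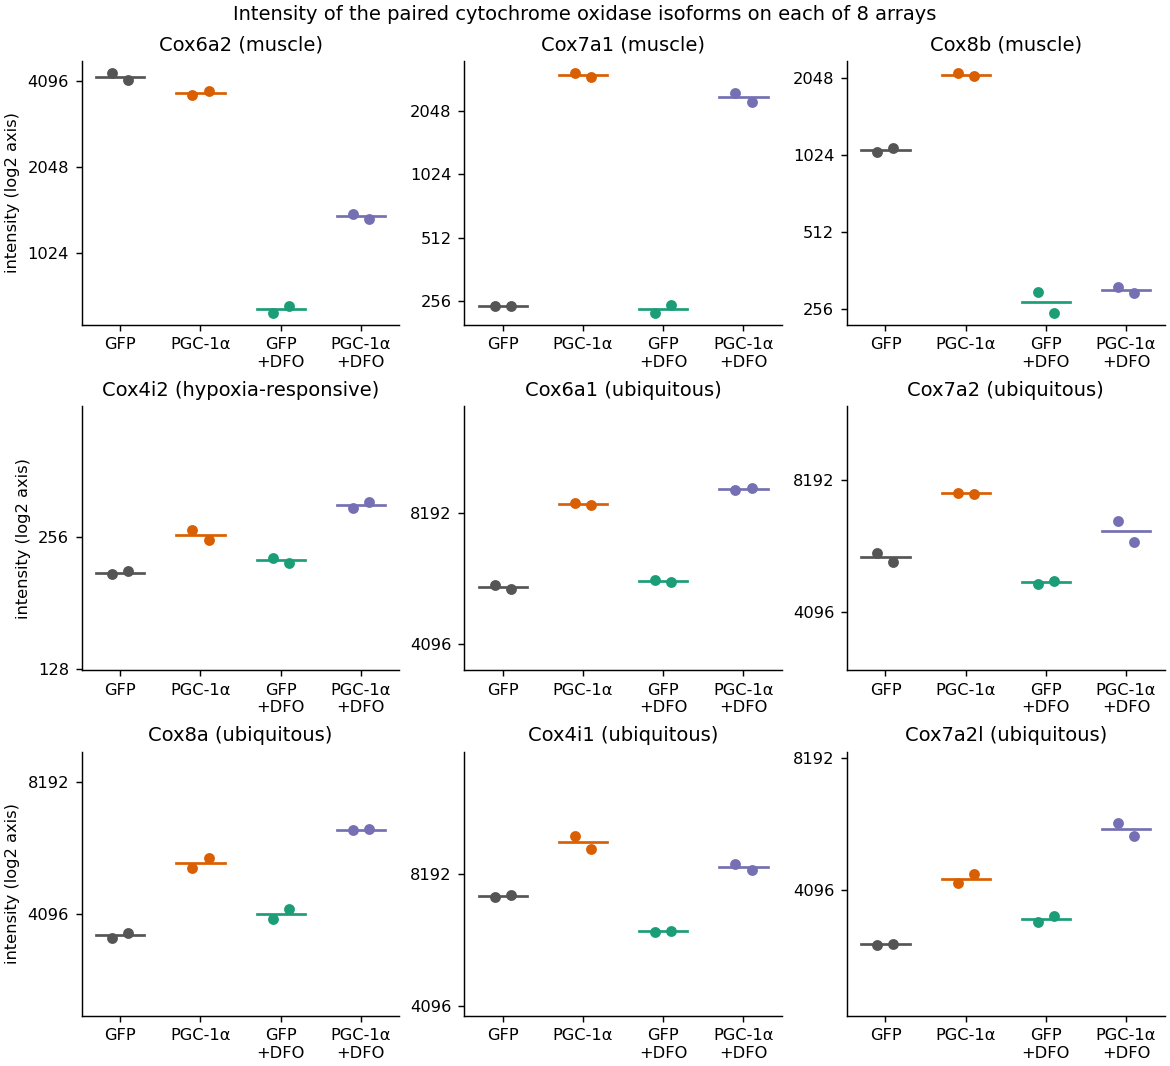
Intensity on each array (vertical axis, log2 scale) of the lead probe set of each gene, by group (horizontal axis; PGC-1α stands for the GFP-PGC-1α construct); points are arrays and lines are the means of 2 arrays. Cox7a1 is between 225.95 and 245.08 without the construct on every array and between 2257.33 and 3082.64 with it, while Cox6a2 and Cox8b are lowest in the DFO groups.

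All 5 ubiquitous genes rose with GFP-PGC-1α, with and without DFO, by less than Cox7a1. Cox6a1, the ubiquitous form of subunit 6a, read 5596.62 and 5485.52 in GFP, 8638.84 and 8539.96 in GFP-PGC-1α, 5745.99 and 5688.61 in GFP+DFO, and 9236.19 and 9339.73 in GFP-PGC-1α+DFO. All 4 arrays with the construct exceeded all 4 without it. It rose by 0.63 ± 0.07 without DFO (adjusted p = 0.0105) and by 0.70 ± 0.07 with DFO (adjusted p = 0.00432), and with DFO it differed by 0.05 and 0.11 (adjusted p = 0.721 and 0.336). Cox8a, the ubiquitous form of subunit 8, read 3609.52 and 3709.57, 5215.22 and 5490.06, 3991.75 and 4201.59, and 6368.26 and 6384.60 in the same group order. Its groups did not overlap and it rose by 0.55 (adjusted p = 0.0189) and 0.64 (adjusted p = 0.00701) with the construct. Its differences with DFO, 0.16 in GFP and 0.25 in GFP-PGC-1α, did not pass (adjusted p = 0.224 and 0.0781).

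Cox7a2, the ubiquitous form of subunit 7a, read 5596.74 and 5330.36 in GFP, 7652.04 and 7625.86 in GFP-PGC-1α, 4751.96 and 4815.15 in GFP+DFO, and 6598.89 and 5904.20 in GFP-PGC-1α+DFO. Its groups did not overlap, and the construct arrays were the higher ones. It rose by 0.48 ± 0.09 without DFO (adjusted p = 0.0352) and by 0.38 ± 0.09 with DFO (adjusted p = 0.0424), and its differences with DFO, -0.19 and -0.29, did not pass (adjusted p = 0.206 and 0.0736). Cox7a2l, the assembly factor, read 3066.77 and 3079.84 in GFP, 4234.61 and 4442.50 in GFP-PGC-1α, 3446.72 and 3557.26 in GFP+DFO, and 5820.31 and 5430.63 in GFP-PGC-1α+DFO. Its groups did not overlap, with the highest arrays in GFP-PGC-1α+DFO. It rose by 0.50 ± 0.08 without DFO and by 0.68 ± 0.08 with DFO (adjusted p = 0.0261 and 0.00625). It was the only one of the 9 genes whose rise with DFO passed, by 0.37 in GFP-PGC-1α myotubes (adjusted p = 0.0273, passing in 9 of 21 alternatives).

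The calls of the ubiquitous genes without DFO depended on every array of the comparison. Calls over all genes also became fewer in each fit described here, so such losses are not particular to these genes. Leaving out any GFP or GFP-PGC-1α array left their changes between 0.36 and 0.65 but took all 5 out of the calls, so that of the 7 genes called only Cox7a1 remained. Without either GFP+DFO array, 3 of the 9 genes passed, namely Cox7a1, Cox8b and Cox6a1; those arrays enter this comparison only through the shared estimate of the spread. Under DFO, leaving out either GFP+DFO array reduced the genes called from 8 to 3, namely Cox7a1, Cox6a2 and Cox6a1.

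The Cox4 pair gave small differences. Cox4i1 read 7269.66 and 7342.69 in GFP, 10029.2 and 9382.57 in GFP-PGC-1α, 6066.83 and 6074.3 in GFP+DFO, and 8646.31 and 8366.2 in GFP-PGC-1α+DFO. Its groups did not overlap, and the DFO arrays were the lower ones under each construct. It rose with the construct by 0.41 ± 0.08 (adjusted p = 0.0393) and 0.49 ± 0.08 (adjusted p = 0.0153), and its differences with DFO were -0.27 (adjusted p = 0.0693) and -0.19 (adjusted p = 0.155). Cox4i2 read 210.33 and 213.99 in GFP, 265.98 and 251.61 in GFP-PGC-1α, 229.62 and 223.7 in GFP+DFO, and 297.61 and 306.95 in GFP-PGC-1α+DFO. Its highest arrays were those with both construct and DFO. The construct raised it by 0.42 ± 0.08 with DFO (adjusted p = 0.0234), and the 0.29 without DFO did not pass (adjusted p = 0.0881). Its difference with DFO was 0.10 in GFP (adjusted p = 0.464) and 0.22 in GFP-PGC-1α (adjusted p = 0.103). Neither passed; the second passed in 2 of 21 alternatives (0.66 with spike-in scaling and 0.22 among genes above the median level).

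Genes that act on the Cox4 isoform choice did respond to DFO. Of 5 measured, 4 were higher in GFP+DFO than in GFP and none lower, against 11.8% and 12.5% of all genes. Hif1a, a subunit of the hypoxia-inducible factor, was higher by 0.50, and Lonp1, a mitochondrial protease, by 0.45. Rbpj and Cxxc5, which act on a conserved element of the Cox4i2 promoter, were higher by 1.03 and 1.13. Epas1, the other hypoxia-inducible factor subunit listed, differed by -0.77 (adjusted p = 0.0839). In GFP-PGC-1α myotubes 3 of the 5 were higher with DFO and none lower, against 11.4% and 14.2% of all genes. Among targets of hypoxia-inducible factor in GFP myotubes, Vegfa rose with DFO by 1.27, Egln3 by 1.32 and Car9 by 4.89.

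With GFP-PGC-1α and no DFO, 7 of the 9 genes were higher and 0 lower, against 4.96% of all genes higher and 4.77% lower. Under DFO 8 were higher and 0 lower, against 6.93% and 12%. With DFO in GFP myotubes 0 were higher and 2 lower (Cox6a2 and Cox8b), against 11.8% and 12.5%. In GFP-PGC-1α myotubes 1 was higher (Cox7a2l) and 3 lower (Cox6a2, Cox8b and Cox7a1), against 11.4% and 14.2%. The interaction passed for 1 gene upward (Cox6a2) and 0 downward, against 0.231% and 0.324% of all genes. The median change of the 9 was 0.50 and 0.64 with the construct, without and with DFO, and -0.05 and -0.19 with DFO, in GFP and in GFP-PGC-1α, where the medians over all genes were -0.08, -0.05, -0.02 and 0.01.

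**Figure D2:**
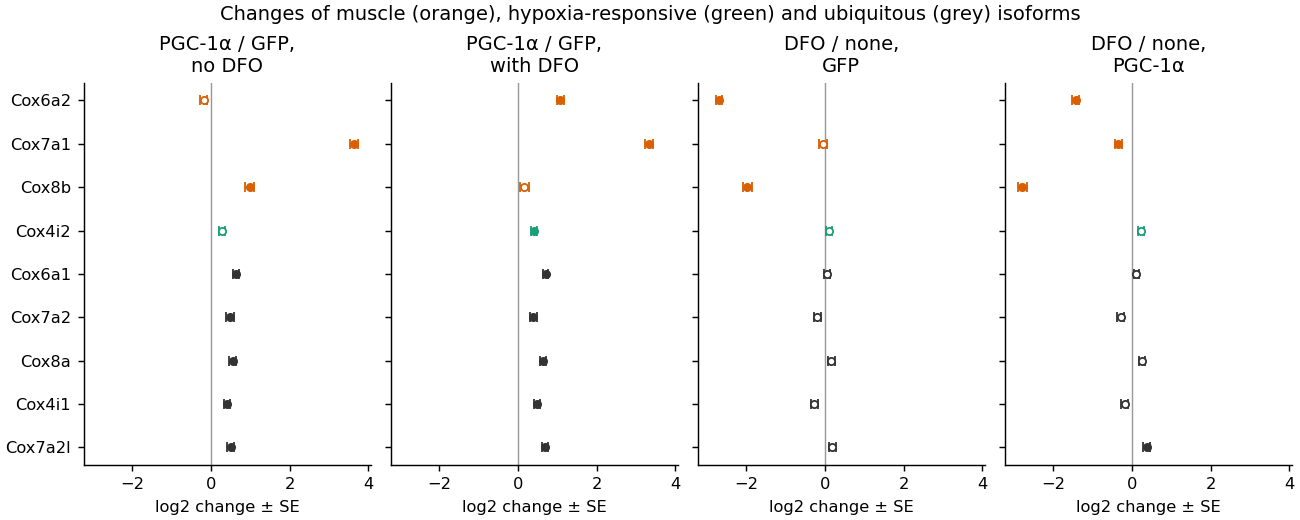
Log2 change ± SE (horizontal axis) of each gene (vertical axis) in 4 comparisons, with filled points for an adjusted p below 0.05 and open points otherwise; PGC-1α stands for the GFP-PGC-1α construct. The ubiquitous genes lie between 0.38 and 0.70 in both construct comparisons, and the falls of Cox6a2 and Cox8b with DFO stand far to the left of the other 7 genes.

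Set against their own partners, the muscle isoforms separated by treatment. The log2 ratio of Cox7a1 to Cox7a2, with the GFP mean set to 0, was 3.18, 3.13, 3.08 and 3.10 on the arrays with the construct and -0.04 to 0.19 on those without. Its mean response to the construct was 3.05 ± 0.03 (3.15 without and 2.95 with DFO), and to DFO 0.04 ± 0.03. The Cox6a2 to Cox6a1 ratio responded to DFO by -2.15 ± 0.04 (-2.74 in GFP and -1.55 in GFP-PGC-1α). To the construct it responded by -0.82 without DFO and 0.38 with DFO. The Cox8b to Cox8a ratio responded to DFO by -2.59 ± 0.09 (-2.13 in GFP and -3.04 in GFP-PGC-1α), and to the construct by 0.43 without and -0.48 with DFO, which averaged to -0.02 ± 0.09. The differences of these ratios between strata were not tested.

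The Cox4i2 to Cox4i1 ratio was higher on all 4 arrays with DFO, at 0.25 to 0.38, than on all 4 without, at -0.13 to 0.01. Its mean response to DFO was 0.39 ± 0.03 (0.36 in GFP and 0.41 in GFP-PGC-1α), and to the construct -0.10 ± 0.03. In exact two-sided permutation tests within strata, which have 36 arrangements of the 8 arrays and cannot go below 0.0556, 5 of the 8 responses reached that smallest p (adjusted p = 0.0889 over 8 tests). They were the DFO responses of the Cox4, Cox6a and Cox8 pairs and the construct responses of the Cox4 and Cox7a pairs. The other 3 gave exact p of 0.389, 0.5 and 1. None passed the correction, and a ratio within an array shows that isoforms moved unequally, not which one moved.

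**Figure D3:**
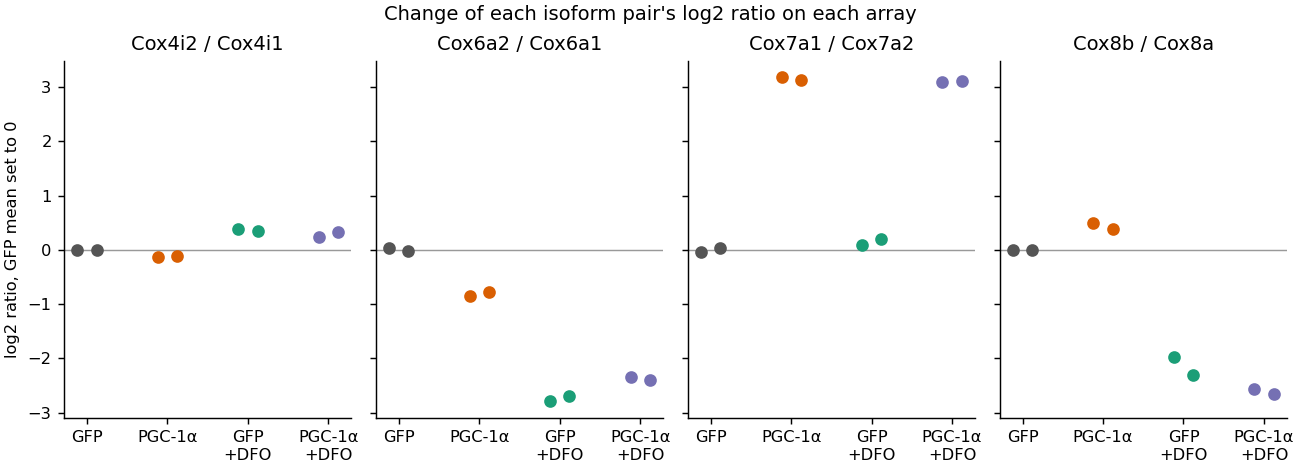
Log2 ratio of each isoform to its partner on each array, with the mean of the GFP arrays set to 0 (vertical axis), by group (horizontal axis; PGC-1α stands for the GFP-PGC-1α construct). The Cox7a1 ratio follows the construct, at 3.08 to 3.18 with it, and the Cox6a2 and Cox8b ratios follow DFO, at -1.96 or below with it.

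In GFP-PGC-1α+DFO against GFP, 5 of the 9 genes were higher and 2 lower, against 13.5% and 18.3% of all genes. Cox7a1 was higher by 3.28 (adjusted p = 4.75e-05), and Cox7a2l by 0.87, Cox8a by 0.80, Cox6a1 by 0.75 and Cox4i2 by 0.51 (adjusted p from 0.00125 to 0.00662). Cox6a2 fell by 1.62 and Cox8b fell by 1.81 (adjusted p = 0.000199 and 0.000344). Cox4i1 at 0.22 and Cox7a2 at 0.19 did not pass (adjusted p = 0.0993 and 0.18). These cultures held Cox7a1 above and both other muscle isoforms below their GFP level. This comparison shares arrays with the preceding ones.

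Among other nuclear subunits of the oxidase, the brighter ones also rose with the construct. Of 10 measured, 5 were higher and 0 lower without DFO, against 4.96% and 4.77% of all genes, with a median of 0.42. The same counts held for the construct under DFO, against 6.93% and 12%, with a median of 0.64. Cox5a rose by 0.83, Cox6b1 by 0.51, Ndufa4 by 0.50, Cox6c by 0.46 and Cox5b by 0.38 without DFO. The lead probe sets of these 5 read 2962.47 or more on every array, and those of the other 5 read 475.14 or less. With DFO in GFP myotubes 4 of the 10 were lower (Cox7c -0.95, Cox5b -0.66, Ndufa4 -0.50 and Cox6b1 -0.40) and 1 was higher (Cox7b2, 0.87). The shares of all genes were 12.5% and 11.8%. In GFP-PGC-1α myotubes 0 were lower and 1 higher with DFO, against 14.2% and 11.4%. The probe sets of Cox7b2 (18.11 to 56.81) and Cox7c (34.99 to 86.84) were dim, below or around the array medians, so their changes are uncertain. Among the 10, no gene that passed fell as far with DFO as Cox6a2 or Cox8b.

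Other mitochondrial genes with muscle and widespread forms gave a mixed picture. Ckmt2, the sarcomeric mitochondrial creatine kinase, rose by 2.93 with the construct and fell by 2.87 with DFO in GFP and fell by 4.33 in GFP-PGC-1α. Its widespread relative Ckmt1 rose by 0.61 with the construct under DFO and did not pass in the other single comparisons. The Ckmt1 probe set was dim (52.57 to 110.73, against array medians of 59.45 to 62.82), so its changes are uncertain. Slc25a4, the muscle adenine nucleotide translocator, rose by 0.64 and fell by 0.50 with DFO in GFP. In GFP-PGC-1α it fell by 0.32 with DFO (adjusted p = 0.0296). Its widespread relative Slc25a5 rose by 0.97 with the construct and fell by 0.70 with DFO in GFP, and differed by -0.02 in GFP-PGC-1α (adjusted p = 0.881).

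The falls of Cox6a2 and Cox8b with DFO went with lower myotube markers. Of the 7 markers, 5 were lower and 0 higher with DFO in GFP myotubes, with a median of -2.11. In GFP-PGC-1α myotubes 6 were lower and 0 higher, with a median of -2.26. The shares of all genes lower and higher were 12.5% and 11.8% in GFP, and 14.2% and 11.4% in GFP-PGC-1α. Myog, the differentiation factor myogenin, fell by 5.08 and fell by 6.30, and Ckm, the muscle creatine kinase, fell by 3.28 and fell by 4.00. Acta1 and Des moved least in GFP myotubes. Acta1 read 12694.84 and 11768.9 in GFP and 9940.3 and 10434.29 in GFP+DFO, where it was the largest part of the marker sum. Des read 4644.24 and 4667.62 in GFP and 3701.07 and 4010.7 in GFP+DFO. The 6 myoblast markers summed to 3848 to 4114 in GFP, 3751 to 3848 in GFP-PGC-1α, 1214 to 1234 in GFP+DFO and 1177 to 1409 in GFP-PGC-1α+DFO. They did not move together: with DFO 4 were lower and 1 higher in GFP, and 3 lower and 1 higher in GFP-PGC-1α. Id1 ran against the sums, at 349.82 and 318.09, 383.44 and 411.21, 457.71 and 485.76, and 901.55 and 750.2 in that group order. The 3 fibroblast markers summed to 4590 to 4612, 4364 to 4577, 7248 to 7476 and 6439 to 6734 in the same order, almost all of it from Dcn, which rose by 0.70 and 0.58 with DFO, while Lum and Pdgfra did not pass. The 2 adipocyte markers measured summed to between 21.06 and 113.3 on every array. Cox7a1 read 2491.7 and 2257.33 in the group with the lowest marker sums, which also carried the construct. With the construct and no DFO it read higher, at 3082.64 and 2967.5. Its GFP and GFP+DFO arrays overlapped, and the marker sums of those groups differed. The part of the markers and of the lower actin ratios in the falls of Cox6a2 and Cox8b, and in the levels of Cox7a1, was not tested.

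**Figure D4:**
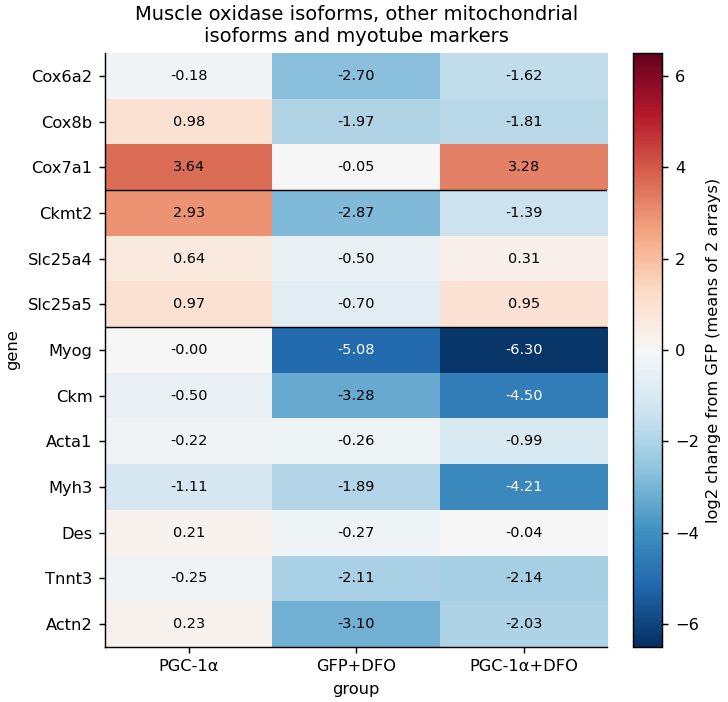
Log2 change from the GFP group (colour and printed value, means of 2 arrays) in the other 3 groups (horizontal axis; PGC-1α stands for the GFP-PGC-1α construct) for the muscle oxidase isoforms, other mitochondrial isoforms and myotube markers (vertical axis). With DFO, Cox6a2, Cox8b and Ckmt2 are negative in both columns together with Myog and Ckm, and Cox7a1 is 3.28 in the group with both treatments.

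Other probe sets of the same genes mostly moved alike. The second probe set of Cox6a1 rose by 1.13 and 0.93 with the construct, without and with DFO, and that of Cox7a2 by 0.72 and 0.57. When each probe set was tested on its own, the lead probe sets of Cox4i1 without DFO (adjusted p = 0.072) and of Cox7a2 in both comparisons (adjusted p = 0.0619 and 0.0686) no longer passed. The 2 further probe sets of Cox7a2l gave 0.51 (adjusted p = 0.0438) and 0.46 (adjusted p = 0.0753, not passed) with the construct without DFO. With the construct under DFO they rose by 0.83 and 0.70. Between DFO and none in GFP-PGC-1α myotubes they gave 0.41 (adjusted p = 0.0312) and 0.28 (adjusted p = 0.132, not passed). Of the 3 probe sets of Cox8a, the second bright one gave 0.46 with the construct without DFO (adjusted p = 0.0652, not passed). With the construct under DFO, that probe set rose by 0.66 (adjusted p = 0.0162). The dimmest, at 43.37 to 87.16, differed with the construct by -0.13 without DFO and by 0.59 under DFO. Neither passed (adjusted p = 0.813 and 0.225). Cox4i1, Cox4i2, Cox7a1 and Cox8b had 1 probe set each.

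The genes whose level followed the muscle and hypoxia-responsive isoforms most closely over the 8 arrays were taken from the 8856 more abundant named genes by Pearson's r, as a description. Closest to Cox7a1 were Mrpl46, a mitochondrial ribosomal protein (r = 0.997), Sco2, a copper chaperone of the oxidase (r = 0.996), and Isca1, an iron-sulfur cluster assembly protein (r = 0.996). Closest to Cox8b were Acyp2, the muscle acylphosphatase (r = 0.997), Abra (r = 0.995), and Acadl, the long-chain acyl-CoA dehydrogenase (r = 0.992). Cox6a2 was closest to Emc2 (r = 0.999), Cdh11 (r = 0.996) and Fem1a (r = 0.996), and Cox4i2 to Nefm (r = 0.991), Poc5 (r = 0.991) and Nfkbia (r = 0.99). With 4 groups of 2 arrays, such values largely describe the pattern of the group means.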

How the data were processed

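C2C12 RNA was measured on 8 Affymetrix Mouse 430 2.0 arrays, 2 for each of 4 groups taken from the labels. The deposited table holds linear intensities, 1 for each of 45101 probe sets and array, from the authors; how they were summarised and scaled was not stated by any label or header read here. The 34945 probe sets that the platform annotation ties to 1 symbol gave 18193 genes, each read from the probe set of highest mean log2 intensity. The log2 values were fitted with limma 3.58.1 (lmFit and eBayes, R 4.3.3), with 1 mean per group over all 8 arrays, 4 residual degrees of freedom plus 1.3 from the prior, and Benjamini-Hochberg adjustment over all genes for each of 6 comparisons. The script was tested on simulated data. Precision is limited by the number of arrays, and no detection calls were used. Pair ratios were tested by exact permutation. Named genes were the 9 isoforms, the genes of fixed lists that passed or defined a check, Ndufa4 and Ndufa4l2 as counterparts of members, and the 3 genes most alike to each muscle or hypoxia-responsive isoform. Myog, Ckm, Acta1 and Des were picked from the myotube markers, and Id1 from the myoblast markers, after their values were seen. Members and lists were chosen with earlier results of these data known. Alternatives are in the closing section. Promoters came from RefSeq. Same-numbered arrays were not paired in the fit.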

Additional observations from a re-analysis of the deposited data

Results flagged for a closer look

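The response of Cox6a2 to GFP-PGC-1α differed between cultures with and without DFO: the difference was 1.26 on the log2 scale (SE 0.12, limma adjusted p = 0.0373). The call passed in 7 of 19 alternatives and in none that left out 1 array. Both GFP-PGC-1α+DFO arrays (1399.94 and 1352.88) lay above both GFP+DFO arrays (634.58 and 669.51), and both GFP-PGC-1α arrays (3661.61 and 3785.19) lay below both GFP arrays (4357.23 and 4105.94). With 2 arrays a group, no array was examined as an outlier.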

How the results depend on the processing

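Of 1080 single-gene values under alternatives, 913 kept direction and side of the threshold, 135 lost the call, 24 gained it and 8 reversed. The falls of Cox6a2 and Cox8b with DFO passed in 20 of 20 alternatives in GFP and 20 of 21 in GFP-PGC-1α, the exception being the crossed block below. The rise of Cox7a1 passed in 20 of 20 with DFO and 19 of 20 without, failing when only the groups compared were fitted (adjusted p = 0.0667). The reversals were of small values: with spike-in scaling, the DFO response in GFP-PGC-1α became 0.25 for Cox4i1, 0.089 for Cox7a1 and 0.15 for Cox7a2, and the interaction 0.14 for Cox7a1 and 0.34 for Cox7a2; with the mean of probe sets, Cox8a with DFO in GFP became -0.031 and the Cox6a1 interaction -0.069; without GFP+DFO replicate 1, Cox7a1 with DFO in GFP became 0.010. The response of the Cox8b to Cox8a ratio to GFP-PGC-1α became 0.11 with quantile normalization and 0.11 with the mean of probe sets, and ranged from -0.11 to 0.063 when 1 array was left out. The causes were not tested.

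The count of the 9 genes called with GFP-PGC-1α without DFO, 7, became 2 with spike-in scaling, 4 with the mean of probe sets, 4 with the replicate block, 1 when a 2-fold change was asked and 0 when only the groups compared were fitted (8 at an unadjusted p below 0.05), and ranged from 1 to 7 when 1 array was left out. With DFO, 8 became 2 at 2-fold and 2 from only the groups compared, and 3 to 7 without 1 array. For DFO in GFP, 2 became 6 with the trend and robust options of eBayes. For DFO in GFP-PGC-1α, 4 became 7 among genes above the median level, 8 with trend and robust, 2 with the mean of probe sets, 2 with the replicate block, 2 at 2-fold, 2 from only the groups compared, and 2 to 3 without 1 array. The interaction, 1, became 2 among genes above the median level, 2 with trend and robust, and 0 with spike-in scaling, the mean of probe sets, the replicate block, every probe set tested on its own or any 1 array left out, where 1 to 3 genes had an unadjusted p below 0.05 in limma; it could not be fitted from only the groups compared. For both treatments against GFP, 7 became 3 at 2-fold. Over all genes the counts ranged over alternatives from 0 to 3746 (1770 as reported), 861 to 4992 (3446), 1672 to 5623 (4409), 0 to 5912 (4662), 0 to 1467 (101) and 2501 to 7057 (5786), in the order construct without and with DFO, DFO in GFP and in GFP-PGC-1α, interaction, and both.

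The labels do not say that replicate numbers pair the arrays, and they were not treated as pairs: deviations of same-numbered arrays correlated at -0.11 to 0.22 over the 6 pairs of groups, not above 0.1 in each, and the replicate block gave the counts above. A block with GFP-PGC-1α and GFP-PGC-1α+DFO numbers crossed, chosen after seeing the data, called 0 of 9 genes for DFO in GFP-PGC-1α (2 at an unadjusted p below 0.05) and 0 of all genes. Spike-in scaling moved the median of all genes by 0.18, 0.62, -0.0004, 0.44, 0.44 and 0.62 in the same order of comparisons, and the share higher among genes called to 86.2%, 94%, 47.5%, 80.9%, 66.7% and 86% from 51%, 36.6%, 48.5%, 44.6%, 41.6% and 42.4%. Relative to those shifts the ratios of paired isoforms, taken within an array, do not move.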

Other observations

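Genes whose log2 level over the arrays correlated most closely with that of Cox4i2 spanned wider ranges. The mean intensity of Nefm, a neurofilament gene, was 32.0 in GFP, 224 in GFP-PGC-1α, 58.1 in GFP+DFO and 1203 in GFP-PGC-1α+DFO. Its GFP and GFP+DFO values lay below the array medians, so the size of its range is uncertain. The mean intensity of Nfkbia, the NF-κB inhibitor, was 1141, 3056, 1650.0 and 5887 in the same order. Such means were taken on the log2 scale. Sco2, the gene of a copper chaperone needed for oxidase assembly, read 332 and 333 in GFP and GFP+DFO and 1737 and 1583 in GFP-PGC-1α and GFP-PGC-1α+DFO, high with the construct and low without it, as Cox7a1 was. Ndufa4l2, a relative of the oxidase subunit Ndufa4, was dim on all arrays and passed in none of the 6 comparisons, with differences of -0.46 and -0.96 with DFO.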
